A study of Homo sapiens with 6 samples.

Results

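Gene expression was compared between HuCCT1/CD90+ and HuCCT1/CD90- cells for 10 genes whose proteins build or shape the actin-filled microvilli of epithelial cells. They are COBL, VIL1, ESPN, EPS8, EPS8L1, EPS8L2, EPS8L3, MYO1A, CDHR2 and EZR, found by symbol among the 20811 genes of the table. HuCCT1 is an established human intrahepatic cholangiocarcinoma line. HuCCT1/CD90+ cells had received a human THY1 lentivirus with a CMV promoter and GFP, where THY1 encodes CD90. HuCCT1/CD90- cells had received the blank virus with GFP and a puromycin gene, and both were transduced at an MOI of 40. Each line gave 3 libraries of total RNA, made with Ion AmpliSeq Transcriptome primers, so that 1 amplicon stands for each gene. Neither the labels nor the study's methods say whether the 3 libraries came from separate cultures, or whether a line is a pool or a clone of transduced cells. Values are RPM, a gene's reads scaled by the library's total of reads on genes, and the libraries held 8587634 to 10551516 such reads. The genes were chosen by function with the RPM difference between these same lines already in view, COBL being among the largest rises of the table, so their differences are described here and are not independent evidence.

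Microvilli are finger-like protrusions of the apical membrane, and cholangiocytes, the cells that line the bile ducts, carry them on the surface that faces the bile. Their core is a bundle of parallel actin filaments. Nucleators start the filaments, bundlers such as villin and espin tie them together, proteins of the EPS8 family cap and cross-link filaments near the tip, class I myosins and ezrin tie the bundle to the membrane, and protocadherins join the tips of neighbouring microvilli.

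The transduced gene was looked at first. For THY1, the HuCCT1/CD90- libraries gave 0, 1 and 0 reads and the HuCCT1/CD90+ libraries 435, 445 and 680, as the labels say. Of the marker lists used to check the cells, 8 of 8 biliary epithelial genes were above the floor of 3 reads per library, and their summed level was 8211 to 9314 RPM in HuCCT1/CD90- cells against 10976 to 11722 RPM after THY1 transduction. KRT18 and EPCAM were higher in HuCCT1/CD90+ and none of the 8 was lower. All 8 enterocyte genes were at or under the floor in both lines (sums of 0.19 to 0.388 RPM and 0.214 to 0.348 RPM), among them FABP2 at 0 reads. Of the 8 hepatocyte genes, 5 were at or under the floor in both lines, ALB and TTR included, and APOA1, HP and SERPINA1 were lower in HuCCT1/CD90+ (sums of 13.6 to 16.1 RPM against 0.217 to 0.814 RPM). Of the 8 fibroblast genes, 6 were lower in HuCCT1/CD90+ and none was at the floor in both lines (sums of 60.6 to 91.5 RPM against 21.4 to 26.2 RPM). Of the 6 leukocyte genes, PTPRC and CD3E were at or under the floor in both lines, while CD14 and LYZ were lower in HuCCT1/CD90+ (sums of 79.9 to 99.98 RPM against 5.25 to 7.22 RPM). What part these differences have in the values below was not tested.

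Of the 10 genes, 3 rose in HuCCT1/CD90+ and 0 fell, a call being an adjusted p of at most 0.05 from limma over all genes together with a fold change of at least 1.5 on log2(RPM + 1). Over all 20811 genes, 15.1% were called by this rule, 7.59% higher and 7.49% lower. The 3 genes were COBL, EPS8L1 and EPS8L2. By the study's own kind of limit, an unadjusted p of at most 0.05 with the same fold, the counts were again 3 and 0, where 20.1% of all genes passed, 10.1% higher and 9.98% lower. At an unadjusted p under 0.05 and without a fold limit, 4 of the 10 were higher and 1 was lower, where 15.3% and 15.9% of all genes were. By edgeR with a filter on low counts, which tested 7 of the 10, the counts were 3 higher and 0 lower, where 17.5% and 17.3% of its genes were called. By DESeq2, which gave a value for 9 of the 10, they were also 3 and 0, where 12.8% and 12.1% of its genes were called. The median log2 fold change of the 10 genes was 0.10, beside a median of 0 over all genes. It moved with the setting, being 0.067 with an offset of 5 RPM, 0.26 with 0.1 RPM and 0.53 by edgeR without a filter. EZR and EPS8, which had the most reads of the 10, were not called, and MYO1A and CDHR2 were not detected above the floor in either line. In RNA of whole cultures, fewer cells that use a gene and less RNA per cell cannot be told apart. The libraries of the lines did not overlap for 6 of the 10 genes, whereas this was so for 35% of all genes.

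**Figure D1:**
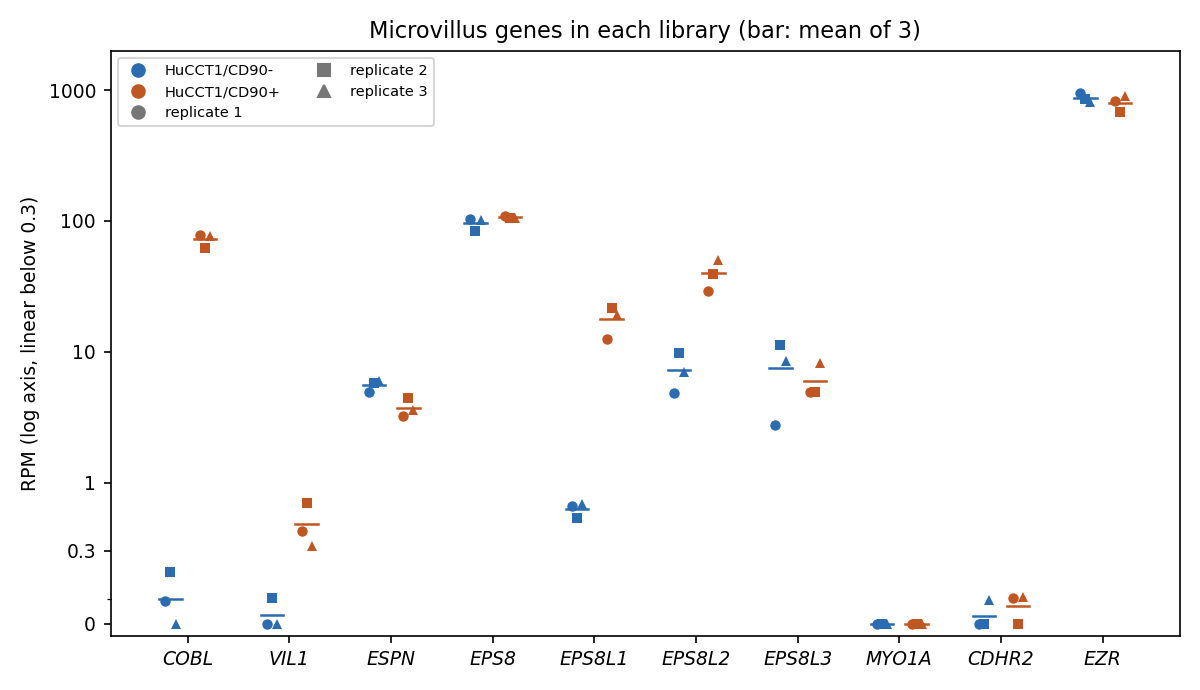
RPM of the 10 genes in each of the 6 libraries, on a log axis that is linear below 0.3 RPM. Circles, squares and triangles are replicates 1, 2 and 3, blue is HuCCT1/CD90- and orange HuCCT1/CD90+, and bars are means. COBL, EPS8L1 and EPS8L2 stand well apart between the lines, EZR and EPS8 lie close together, and MYO1A is at 0 in every library.

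COBL encodes cordon-bleu, an actin nucleator that is needed for the microvilli of cultured enterocytes. In GENCODE 29 the gene spans 51016212 to 51316818 of chromosome 7 (GRCh38, minus strand), and the annotation lists 11 transcripts for it. The HuCCT1/CD90- libraries had 0.095, 0.214 and 0 RPM of COBL, whereas the HuCCT1/CD90+ libraries had 77.7, 62.1 and 77.0 RPM. Each HuCCT1/CD90- library therefore sat at or under the floor of 3 reads and each HuCCT1/CD90+ library far above it. In reads these were 1, 2 and 0 against 725, 533 and 710. The ratio of the pooled read rates was 730 with a 95% counting interval from 250 to 3545, which covers counting error only since PCR reads carry no molecular identifiers. On log2(RPM + 1), which understates the change of weak genes, the log2 fold change was 6.05 (standard error 0.13), and 3 of all 20811 genes rose more. With any 1 library left out it stayed between 5.98 and 6.16.

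The relatives of COBL and other nucleators were taken from a list of 19 genes, of which 4 were higher and 1 lower. This is 21.1% and 5.3% of the list, beside 7.59% and 7.49% of all genes. COBLL1, the closest relative of COBL, rose from 2.36 ± 0.281 to 10.6 ± 3.00 RPM (SD, n = 3 each; log2 fold change 1.75 ± 0.22 SE, limma adjusted p = 0.011). WASL, the gene of N-WASP, which switches on the Arp2/3 complex, rose from 25.1 ± 6.56 to 55.1 ± 8.45 RPM (adjusted p = 0.042, limma). The formin gene DIAPH1 rose from 182 ± 25.4 to 315 ± 15.8 RPM (adjusted p = 0.015, limma). SPIRE2, a nucleator of actin tracks for vesicles, fell from 4.70 ± 0.0419 to 1.07 ± 0.102 RPM (adjusted p = 0.00037, limma). With the replicate number as a block, which is read as a pairing of the libraries, the fall of SPIRE2 was kept and none of the 4 rises was. The blocked adjusted p from limma was then 0.069 for COBLL1, 0.087 for WASL and 0.080 for DIAPH1. With any 1 library left out, 1 to 2 genes of this list were higher and SPIRE2 was lower each time. With the median of its neighbours on chromosome 7 taken off, WASL had a log2 fold change of 0.56 and was not called (adjusted p = 0.23, limma). It also lost its call without any 1 of the 6 libraries (adjusted p up to 0.13), and DIAPH1 without any 1 except HuCCT1/CD90- replicate 1 (up to 0.062). Both genes were called higher by edgeR and by DESeq2. Over the whole table calls were fewer too, 3138 with all libraries and 1868 to 2414 with 1 left out.

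The EPS8 family has 4 members in human cells. EPS8 itself caps and bundles actin filaments and sits at the tips of microvilli, and EPS8L1, EPS8L2 and EPS8L3 are its paralogs. Their genes lie on 4 different chromosomes. EPS8 lies on chromosome 12 from 15620158 to 15882329, EPS8L1 on chromosome 19 from 55072020 to 55087923, EPS8L2 on chromosome 11 from 694438 to 727727 and EPS8L3 on chromosome 1 from 109750080 to 109764027 (GRCh38, GENCODE 29). Of the family, EPS8L1 and EPS8L2 rose, and EPS8 and EPS8L3 did not pass.

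Promoter windows of RefSeq (GRCh38.p14, 250 bases before to 50 after the start) were held for 6 of the 10 genes, EPS8L1, EPS8L2, EPS8L3, MYO1A, CDHR2 and EZR. The upstream window of each EPS8 paralog is shown, since 2 of them rose and the third did not. Each is written 5′ to 3′ on the strand of the gene. Capitals mark matches on either strand to the letters GGGCGG, a GC box, and CAGGTG, an E-box that ZEB and SNAIL repressors can read.
EPS8L1, chr19:55075619-55075918, plus strand: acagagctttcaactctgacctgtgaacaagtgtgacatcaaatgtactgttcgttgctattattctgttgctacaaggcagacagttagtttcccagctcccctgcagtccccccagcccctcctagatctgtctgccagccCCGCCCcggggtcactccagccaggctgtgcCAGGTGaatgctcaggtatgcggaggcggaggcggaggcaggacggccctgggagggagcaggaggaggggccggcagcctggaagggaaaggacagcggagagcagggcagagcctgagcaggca
EPS8L2, chr11:705981-706280, plus strand: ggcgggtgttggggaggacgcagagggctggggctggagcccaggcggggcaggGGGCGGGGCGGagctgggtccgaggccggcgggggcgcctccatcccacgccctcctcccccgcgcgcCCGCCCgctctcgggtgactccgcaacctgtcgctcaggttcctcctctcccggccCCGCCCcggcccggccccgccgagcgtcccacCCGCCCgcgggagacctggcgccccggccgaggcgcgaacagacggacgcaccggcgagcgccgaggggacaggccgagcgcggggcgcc
EPS8L3, chr1:109763874-109764173, minus strand: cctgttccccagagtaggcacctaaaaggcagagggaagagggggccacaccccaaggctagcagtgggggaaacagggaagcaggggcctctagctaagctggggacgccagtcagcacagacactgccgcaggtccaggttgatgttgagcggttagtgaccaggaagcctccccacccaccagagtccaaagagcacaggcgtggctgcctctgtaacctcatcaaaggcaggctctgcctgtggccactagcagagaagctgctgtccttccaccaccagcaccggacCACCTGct
The EPS8L1 window held 1 GC box and 1 E-box, the EPS8L2 window 5 GC boxes, of which a pair overlap by a base, and no E-box, and the EPS8L3 window 1 E-box and no GC box. The G and C share was 61%, 81.3% and 61%, with 9, 43 and 5 CG pairs, beside medians of 58.7% and 14 pairs over all 35116 windows. Of all windows, 45% held the GC box letters and 20.6% the E-box letters. The letters TATAAA of the TATA box, GGAATG read by TEAD factors, TGANTCA read by AP-1 and AACCNGGTT read by grainyhead-like factors were searched on both strands as well, and none was in these 3 windows. Those letters were in 11.5%, 14%, 7.71% and 0.239% of all windows. EPS8L1 and EPS8L2 each have a second RefSeq window, not printed, which differs from the first. That of EPS8L1 held 3 GC boxes and no E-box, and that of EPS8L2 no GC box, no E-box and 1 match to GGAATG. The table does not say which start site the cells used, and a match is a description of the letters and not a bound site.

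For EPS8L1, the 3 HuCCT1/CD90- libraries held 0.663, 0.535 and 0.679 RPM and the 3 HuCCT1/CD90+ libraries 12.5, 21.7 and 19.1 RPM. All HuCCT1/CD90+ libraries were above all HuCCT1/CD90- libraries, and the smallest of them, replicate 1, was still far above the other line. The mean rose 28.4-fold, from 0.626 ± 0.0789 to 17.8 ± 4.70 RPM (SD, n = 3 each). These values rest on 5 to 7 reads in each HuCCT1/CD90- library and 117 to 186 in each HuCCT1/CD90+ library. On log2(RPM + 1) the rise was 3.50 ± 0.22 (standard error), with a 95% confidence interval of 2.92 to 4.07, and it ranked 82 over all genes.

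For EPS8L2, the 3 HuCCT1/CD90- libraries held 4.83, 9.84 and 6.99 RPM and the 3 HuCCT1/CD90+ libraries 28.9, 39.6 and 50.3 RPM. The lines did not overlap, and replicate 1 was the lowest library in both. The mean rose from 7.22 ± 2.51 to 39.6 ± 10.7 RPM, 5.49-fold on the means. On log2(RPM + 1) the difference was 2.32 ± 0.32 (standard error) with a 95% confidence interval of 1.45 to 3.18. Without HuCCT1/CD90- replicate 3, HuCCT1/CD90+ replicate 2 or HuCCT1/CD90+ replicate 3 it no longer passed the adjusted threshold (adjusted p = 0.058, 0.058 and 0.052, limma), while its log2 fold change stayed between 2.09 and 2.54 over the libraries left out. TMEM80, which overlaps EPS8L2 on the same strand, and DEAF1, which overlaps it on the other, had log2 fold changes of 0.027 and -0.088.

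For EPS8, the 3 HuCCT1/CD90- libraries held 104, 83.6 and 101 RPM and the 3 HuCCT1/CD90+ libraries 110, 105 and 105 RPM. Its lowest HuCCT1/CD90+ library lay just above its highest HuCCT1/CD90- library, so that the lines did not overlap by a narrow margin. The log2 fold change was 0.15 with a 95% confidence interval from -0.11 to 0.41, based on 781 to 1101 reads per library. EPS8L3 had 2.75, 11.3 and 8.54 RPM in HuCCT1/CD90- cells against 4.93, 4.89 and 8.14 RPM in HuCCT1/CD90+ cells. The lines overlapped, and replicates 1 and 2 of HuCCT1/CD90- held the lowest and the highest value of all 6 libraries. The log2 fold change of EPS8L3 was -0.16, and its 95% confidence interval from -1.58 to 1.27 holds both rises and falls.

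**Figure D2:**
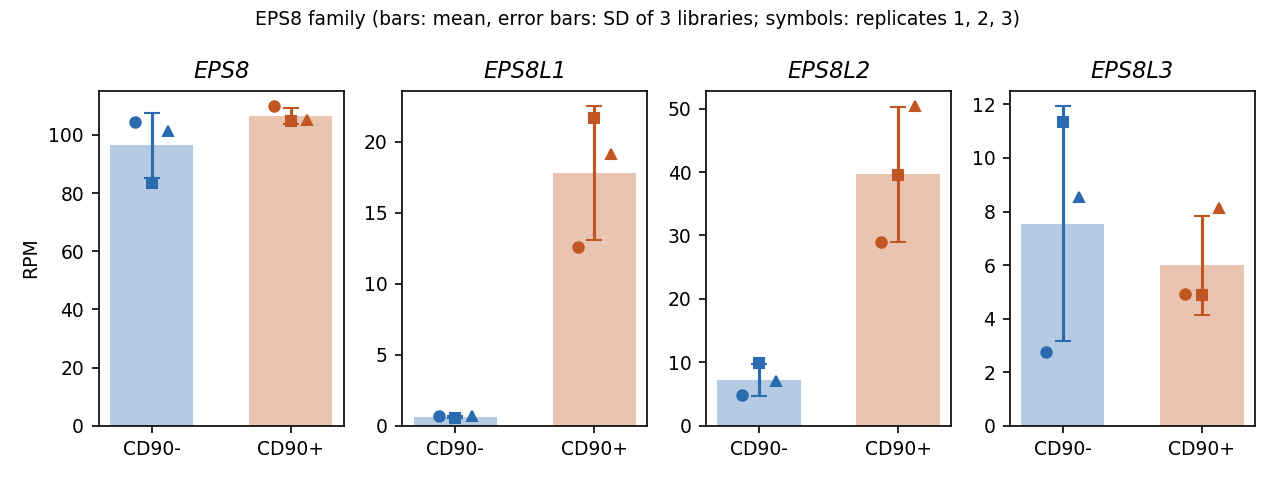
RPM of the 4 EPS8 family genes, each with its own axis from 0. Bars are means and error bars the SD of 3 libraries, and symbols are replicates 1 (circle), 2 (square) and 3 (triangle). EPS8L1 went from 0.626 to 17.8 RPM and EPS8L2 from 7.22 to 39.6 RPM, whereas the libraries of EPS8L3 overlapped and those of EPS8 lay between 83.6 and 110 RPM.

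VIL1 encodes villin, which bundles actin in the core of the microvillus and severs it when calcium rises. The gene lies on chromosome 2 from 218419092 to 218453295 (GRCh38). It had 0, 0.107 and 0 RPM in HuCCT1/CD90- cells against 0.429, 0.699 and 0.326 RPM in HuCCT1/CD90+ cells, from 0, 1 and 0 and from 4, 6 and 3 reads. Each HuCCT1/CD90+ library was above each HuCCT1/CD90- library, but on very few reads in both lines. The ratio of the pooled read rates was 14.5 with a counting interval from 2.17 to 615, and on log2(RPM + 1) its fold change of 1.43 was under the limit of 1.5. It was called with an offset of 0.1 RPM and by edgeR without a filter, but not by limma with 1 RPM or by DESeq2.

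ESPN encodes espin, a bundler that sets the length of microvilli and of the stereocilia of hair cells. It lies on chromosome 1 from 6424776 to 6461367 (GRCh38). It had 4.93, 5.78 and 6.02 RPM in HuCCT1/CD90- cells against 3.22, 4.43 and 3.58 RPM in HuCCT1/CD90+ cells. All HuCCT1/CD90+ libraries were below all HuCCT1/CD90- libraries. The log2 fold change was -0.48 (95% confidence interval from -0.81 to -0.15), a 1.39-fold difference that did not reach the limit. Among genes averaging 10 RPM or more, the 50 closest to ESPN had a median of -0.54, and with this taken off the log2 fold change of ESPN was -0.032. ESPN has a pseudogene, ESPNP, listed at 0 and 0.0387 RPM on average, and reads of the pair could be shared. TNFRSF25, which overlaps ESPN on the other strand, went from 0.752 to 2.22 RPM (log2 fold change 0.88), and since no source used here says that counting kept strand, reads of such a pair may not be told apart.

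Other bundling, severing and capping genes were taken from a list of 21, of which 10 were higher and 0 lower in HuCCT1/CD90+, with a median log2 fold change of 0.40. This is 47.6% of the list beside 7.59% of all genes and 12% of the 12062 genes with a mean of 1 RPM or more. At an unadjusted p under 0.05, 10 were higher and 1 lower, and edgeR and DESeq2 gave 10 higher and 0 lower. With the replicate block 9 were higher. LCP1, the gene of the bundler plastin 2, better known from leukocytes, rose from 0.197 ± 0.255 to 15.2 ± 1.60 RPM (SD, n = 3 each; log2 fold change 3.77 ± 0.18 SE, limma adjusted p = 0.00099). SCIN, the gene of scinderin, a severing protein of the villin family, rose from 0.822 ± 0.379 to 12.05 ± 1.90 RPM (adjusted p = 0.0024, limma). BAIAP2L1, the gene of IRTKS, which binds EPS8 at microvillus tips, rose from 25.1 ± 0.372 to 113 ± 18.5 RPM (limma, log2 fold change 2.11 ± 0.13 SE, adjusted p = 0.0019). With the median of its neighbours taken off, the log2 fold change of BAIAP2L1 was 1.46 and it was still called. EPS8 itself was not called.

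MYO1A encodes brush border myosin I, which tethers the actin bundle to the membrane. It lies on chromosome 12 from 57028517 to 57051198 (GRCh38) and had 0 reads in all 6 libraries, which allows a level of up to 0.284 to 0.349 RPM in a library. No fold is given for it. The list of other myosins found in microvilli and related protrusions held 14 genes, of which 6 were higher and 1 lower, with a median log2 fold change of 0.61. These counts are 42.9% and 7.1% of the list, beside 7.59% and 7.49% of all genes. MYO5B, a motor that carries vesicles to the apical membrane, rose from 0.977 ± 0.384 to 43.4 ± 5.12 RPM (limma, log2 fold change 4.50 ± 0.19 SE, adjusted p = 0.00075). MYO1D, a class I myosin like MYO1A, rose from 4.70 ± 0.842 to 79.7 ± 7.99 RPM (limma, log2 fold change 3.83 ± 0.14 SE, adjusted p = 0.00053). MYO3B, known from stereocilia, had 0, 2 and 0 reads in HuCCT1/CD90- and 21, 20 and 40 in HuCCT1/CD90+, a ratio of 45.1 with a counting interval from 12.1 to 379 (adjusted p = 0.011, limma). It was not called with the replicate block (adjusted p = 0.065) or without HuCCT1/CD90- replicate 3 (adjusted p = 0.050). Under the block 3 of the 14 myosins were higher and 0 lower, where 5.24% and 4.86% of all genes were. The gene that fell was MYO1F, named after its values were seen, with 31 reads over the HuCCT1/CD90- libraries and 0 over the HuCCT1/CD90+ libraries. Its fall was not called with the block or without HuCCT1/CD90- replicate 3 or any HuCCT1/CD90+ replicate, and the number of rises was 4 to 5 with a library left out.

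CDHR2 encodes a protocadherin that links the tips of neighbouring microvilli. It lies on chromosome 5 from 176542511 to 176595974 (GRCh38). It had 0, 0 and 1 reads in HuCCT1/CD90- and 1, 0 and 1 in HuCCT1/CD90+, so that both lines were at the floor. The other 5 genes of the adhesion complex at the tips, CDHR5, USH1C, ANKS4B, MYO7B and CALML4, gave 0 calls in either direction with limma, with edgeR and with DESeq2, and 0 at an unadjusted p under 0.05. By limma, 7.59% of all genes were called higher and 7.49% lower. USH1C and ANKS4B had 0 reads in every library, and 3 of the 5 genes were at the floor in both lines. CDHR5 was at 1.83 and 1.26 RPM on average and CALML4 at 2.78 and 1.72 RPM.

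EZR encodes ezrin, which links the actin bundle to membrane proteins. The gene lies on chromosome 6 from 158765741 to 158819412 (GRCh38). It had 955, 849 and 818 RPM in HuCCT1/CD90- cells against 831, 678 and 897 RPM in HuCCT1/CD90+ cells. The lines overlapped. The mean went from 874 ± 72.0 to 802 ± 112 RPM (SD, n = 3 each), and the difference on log2(RPM + 1) was -0.13 with a 95% confidence interval from -0.48 to 0.22. With 5823 to 10080 reads per library, counting error is small beside this spread.

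Of 17 other ERM and linker genes, 4 were higher and 0 lower with limma, at an unadjusted p under 0.05 they were 7 and 2, and edgeR and DESeq2 each called 4 higher and 2 lower. The limma counts are 23.5% and 0% of the list, beside 7.59% and 7.49% of all genes. At that unadjusted p the shares of all genes were 15.3% and 15.9%. They were 17.5% and 17.3% by edgeR with a filter, and 12.8% and 12.1% by DESeq2. CD44, a membrane receptor that binds ezrin, rose from 1.67 ± 0.505 to 14.7 ± 0.457 RPM (adjusted p = 0.0018, limma). ICAM2, also a ligand of ERM proteins, rose from 12.3 ± 0.868 to 61.4 ± 12.2 RPM (adjusted p = 0.0024, limma). PODXL, the gene of podocalyxin, an apical sialomucin tied to ezrin, rose from 74.4 ± 18.97 to 279 ± 17.8 RPM (adjusted p = 0.0070, limma). With the replicate block 2 of the 17 were higher, and the adjusted p of PODXL was 0.050, just past the limit.

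**Figure D3:**
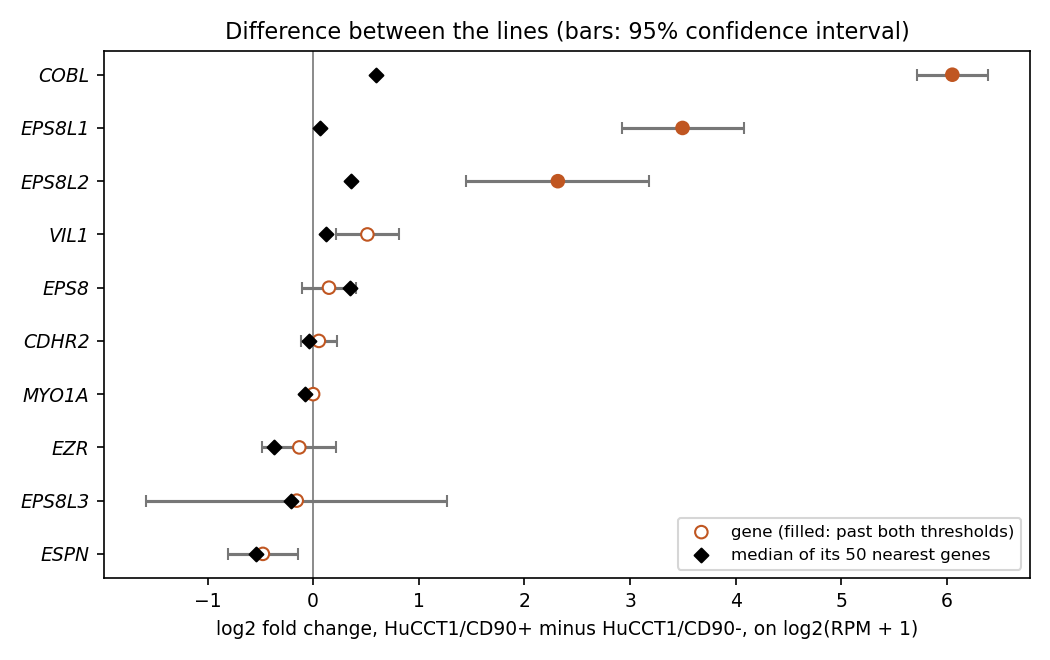
Log2 fold change of the 10 genes on log2(RPM + 1), HuCCT1/CD90+ minus HuCCT1/CD90-, with 95% confidence intervals from limma. Filled points passed both thresholds, and diamonds are the median of the 50 closest genes that average 10 RPM or more. COBL, EPS8L1 and EPS8L2 lie far from their diamonds, and ESPN lies close to its own.

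Position was examined because COBL lies on chromosome 7, whose 376 genes averaging 10 RPM or more had a median log2 fold change of 0.55. The 50 such genes nearest to COBL had a median of 0.59 and ranged from -1.07 to 1.26, with 17 called higher and 3 lower. None of the 50 rose as much as COBL. The 50 genes nearest to EPS8L1 had a median of 0.063, and 1 of them rose more than EPS8L1. Around EPS8L2 the median was 0.36, and 3 of the 50 rose more than EPS8L2. With these medians taken off, COBL, EPS8L1 and EPS8L2 had log2 fold changes of 5.47, 3.44 and 1.97 and each was still called. EPS8 moved from 0.15 to -0.19 and EZR from -0.13 to 0.24 under the same step, neither being called, since their neighbours had medians of 0.35 and -0.37.

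**Figure D4:**
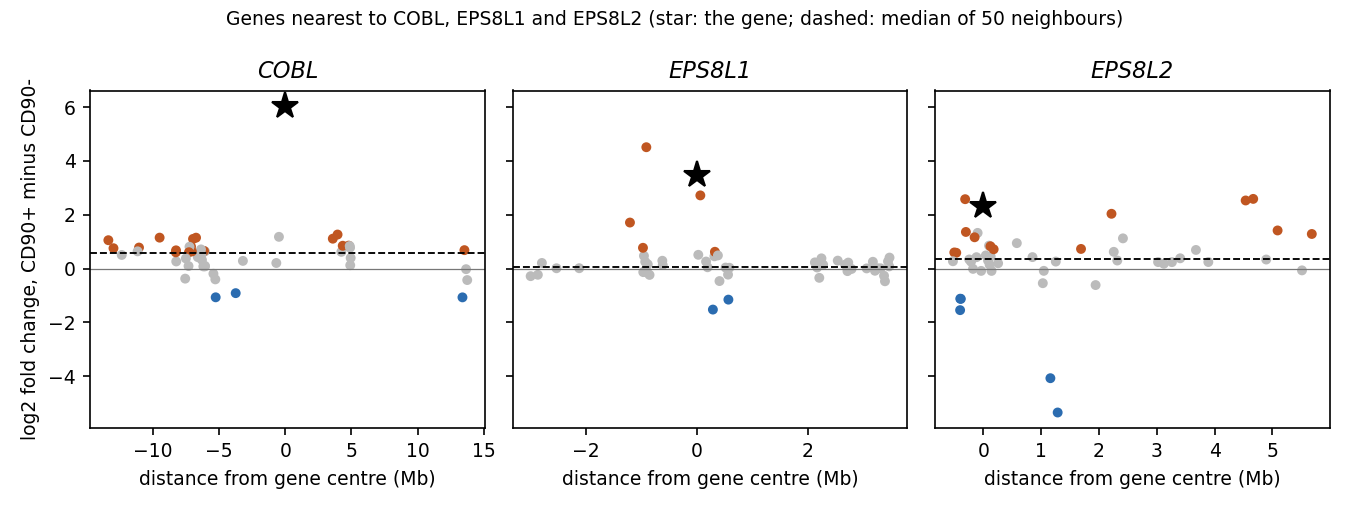
Log2 fold change of the 50 genes nearest to COBL, EPS8L1 and EPS8L2 against their distance in Mb, with the gene itself as a star at 0. Orange points were called higher, blue points lower and grey points not called, and the dashed line is the median of the neighbours. The star of COBL lies above all 50 of its neighbours.

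The actin web under the microvilli and the proteins and enzymes around it were read from further lists. Of 13 terminal web genes, 2 were higher and 1 lower, or 15.4% and 7.7%, beside 7.59% and 7.49% of all genes. MYH14, a non-muscle myosin II heavy chain, had 2, 2 and 1 reads in HuCCT1/CD90- but averaged 31.0 ± 7.29 RPM in HuCCT1/CD90+ cells, at least 104-fold higher against the floor of 3 reads per library (adjusted p = 0.00059, limma). CGN, the gene of the junction protein cingulin, rose from 7.82 ± 1.94 to 47.8 ± 9.57 RPM (adjusted p = 0.0058, limma). The tropomyosin gene TPM2 fell from 288 ± 40.9 to 131 ± 16.9 RPM (adjusted p = 0.014 by limma and 0.070 once the replicate number was a block). Without HuCCT1/CD90- replicate 3 or HuCCT1/CD90+ replicate 1 the fall of TPM2 was not called either (adjusted p up to 0.057).

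Brush border enzymes and transporters, the cargo of the microvillus, gave 0 higher and 2 lower of 24 with limma, and 13 of the 24 were at the floor in both lines. These counts are 0% and 8.3% of the list, beside 7.59% and 7.49% of all genes. At an unadjusted p under 0.05 there were 2 higher and 4 lower, where 15.3% and 15.9% of all genes were. By edgeR with a filter 1 was higher and 2 lower, where 17.5% and 17.3% of its genes were. DESeq2 called 2 higher and 3 lower, where 12.8% and 12.1% of its genes were called. ANPEP, the gene of aminopeptidase N, fell from 171 ± 25.2 to 64.0 ± 4.98 RPM (adjusted p = 0.0052, limma). The anion exchanger gene SLC26A6 fell from 23.5 ± 2.29 to 14.5 ± 1.64 RPM (adjusted p = 0.024, limma), but was not called with the replicate block (adjusted p = 0.086) or without any 1 of the libraries (adjusted p up to 0.074). With the median of its neighbours taken off it was not called (log2 fold change -0.44). By edgeR and by DESeq2 the fall of SLC26A6 was called.

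The kinase cascade from LKB1 through RAP2A and TNIK to MST4, which can switch on a brush border through ezrin in single intestinal cells, held 18 listed genes. Of these, 0 were higher and 2 lower with limma, 4 and 6 at an unadjusted p under 0.05, and 2 and 2 by edgeR and by DESeq2. The limma counts are 0% and 11.1% of the list, beside 7.59% and 7.49% of all genes. At that unadjusted p the shares of all genes were 15.3% and 15.9%. They were 17.5% and 17.3% by edgeR with a filter, and 12.8% and 12.1% by DESeq2. STRADB, a pseudokinase partner of LKB1, had 80.7 ± 9.02 and 51.02 ± 1.68 RPM (adjusted p = 0.016, limma), and TNIK 89.7 ± 8.65 and 57.4 ± 7.84 RPM (adjusted p = 0.035, limma). Neither fall was kept with the replicate block (adjusted p = 0.069 and 0.084). Each lost its call in 5 of the 6 fits that left out a library, STRADB keeping it only without HuCCT1/CD90- replicate 2 and TNIK only without HuCCT1/CD90+ replicate 3 (adjusted p up to 0.066 and 0.11). Both falls were called by edgeR and by DESeq2.

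Transcription factors of the intestinal and biliary epithelium were listed as regulators of brush border genes. Of 18, 5 were higher and 0 lower with limma, 8 and 0 at an unadjusted p under 0.05, and 6 and 0 with edgeR and DESeq2. The limma counts are 27.8% and 0% of the list, beside 7.59% and 7.49% of all genes. At that unadjusted p the shares of all genes were 15.3% and 15.9%. They were 17.5% and 17.3% by edgeR with a filter, and 12.8% and 12.1% by DESeq2. With the replicate block 3 were higher. HNF4A, a regulator of brush border genes in the intestine, had 0, 1 and 2 reads in HuCCT1/CD90- and 49, 76 and 112 in HuCCT1/CD90+. The ratio of its pooled read rates was 88.0 with a counting interval from 29.7 to 430 (adjusted p = 0.0057, limma). KLF4 rose from 1.31 ± 0.811 to 11.3 ± 1.76 RPM (adjusted p = 0.013 by limma and 0.056 once the replicate number was a block), and lost its call without HuCCT1/CD90+ replicate 1 or 3 (adjusted p up to 0.059). With a library left out, 2 to 5 of the 18 were higher, the 2 being found without HuCCT1/CD90+ replicate 3. CDX1 and CDX2, which switch on intestinal genes, VIL1 among them, were at the floor in both lines.

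As a comparison, 20 genes of filopodia and lamellipodia, protrusions of moving cells that use the same actin, gave 3 higher and 4 lower. This is 15% and 20% of the list, beside 7.59% and 7.49% of all genes. ENAH, an elongation factor at their tips, fell from 263 ± 26.0 to 122 ± 10.3 RPM (adjusted p = 0.0053, limma). WASF1, a subunit of the WAVE complex, fell from 26.7 ± 1.95 to 11.8 ± 1.42 RPM (adjusted p = 0.0048, limma). LPXN, an adhesion adaptor, fell from 4.76 ± 0.857 to 1.55 ± 0.228 RPM (adjusted p = 0.0086, limma). CORO1B, which regulates the Arp2/3 complex at the leading edge, rose from 181 ± 24.4 to 405 ± 42.8 RPM (adjusted p = 0.0089, limma). MTSS1, whose protein bends the membrane, and PALLD, the gene of the bundler palladin, rose as well, with log2 fold changes of 1.47 and 0.87 (adjusted p = 0.030 and 0.0054, limma). With the replicate block LPXN, MTSS1 and PALLD were not called (adjusted p = 0.068, 0.094 and 0.051). MTSS1 kept its call only without HuCCT1/CD90+ replicate 2 when a library was left out (adjusted p up to 0.099), and PALLD lost it when the median of its neighbours was taken off (log2 fold change 0.45). LPXN, MTSS1 and PALLD were each called by edgeR and by DESeq2.

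Over all 10 lists, 34 of 169 genes, or 20.1%, were higher and 11, or 6.5%, lower, beside 7.59% and 7.49% of all genes. Of the genes with a mean of 1 RPM or more, without such a filter on the lists, 12% were higher and 12.1% lower. The medians of the lists lay between -0.04 and 0.61, beside a median of 0 over all genes. With the replicate block 20 were higher and 5 lower, where 5.24% and 4.86% of all genes were. With a library left out 22 to 27 were higher and 6 to 10 lower, where 4.61% to 5.64% and 4.36% to 5.96% of all genes were. The lowest of these counts, 22 higher and 6 lower, were found without HuCCT1/CD90+ replicate 3 and without HuCCT1/CD90- replicate 3. Of the 29 genes named from the lists by rule, 29 were called by edgeR and 29 by DESeq2. The block kept 16 of them, and 20 were kept in every fit that left a library out. Whether the lists differ from other genes was not tested.

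**Figure D5:**
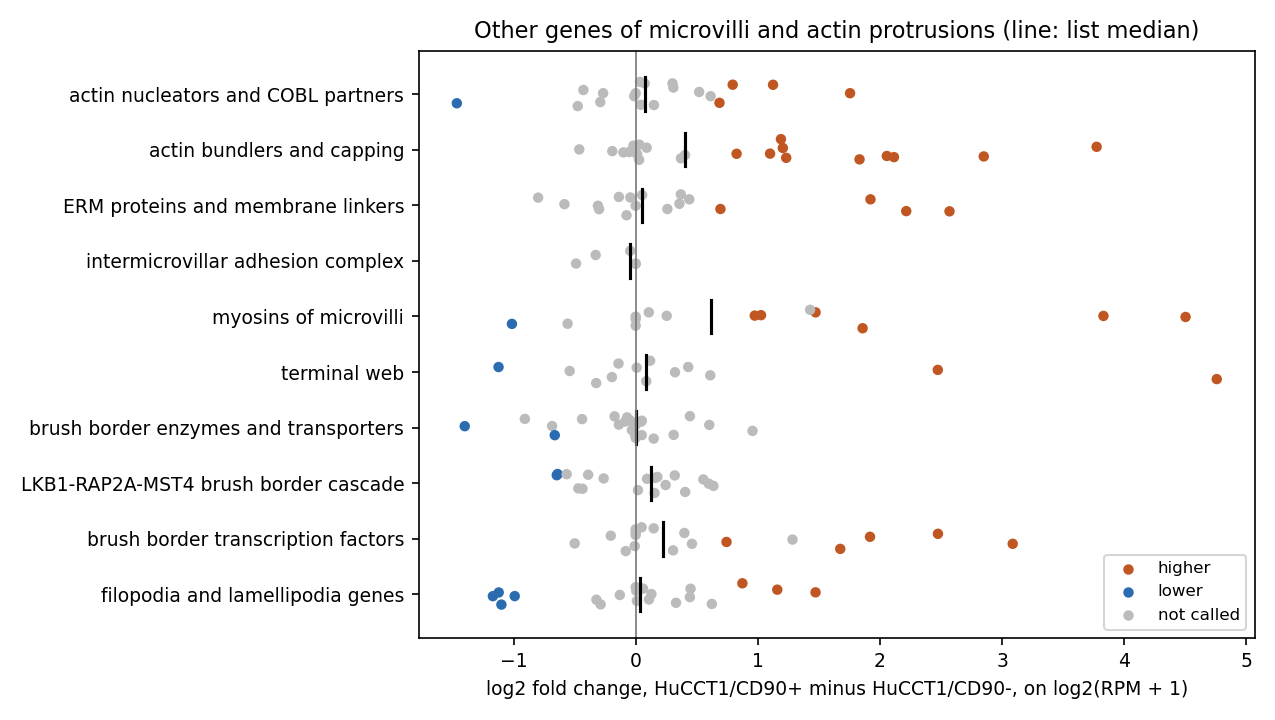
Log2 fold change of the 169 other genes, in 10 lists, each point being a gene, orange where called higher, blue where called lower and grey where not called, with the list median as a line. MYH14 of the terminal web at 4.76 and MYO5B of the myosins at 4.50 lie furthest to the right of the genes named here, and the 5 genes of the adhesion complex lie at or below 0.

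The genes whose pattern over the 6 libraries was closest to that of COBL were found by Pearson's r on log2(RPM + 1) over 8793 genes that average 10 RPM or more. They were MAP7, which binds microtubules, DHCR7, an enzyme of cholesterol synthesis, STAP2, GPR56 and KRTCAP3, with r from 0.9991 to 0.9995. MAP7 went from 10.5 ± 0.889 to 257 ± 13.1 RPM and KRTCAP3 from 2.99 ± 0.377 to 68.2 ± 1.18 RPM. Each r rests on the same 6 libraries of 2 lines, and 169 genes had an r above 0.99.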

How the data were processed

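Total RNA from 6 samples, 3 per line, was made into Ion AmpliSeq Transcriptome libraries and read on an S5 Prime sequencer. Per the study's methods, Torrent Suite's ampliSeqRNA plugin gave the amplicon counts, and the authors deposited them as RPM, scaled by each library's reads on genes. Their notes name hg19 and Transcriptome Analysis Console. The strand of counting was not given in the sources used here.

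RPM steps gave whole reads for 100% of values (within 0.01 read beyond rounding), and thus 8587634 to 10551516 reads per library. Differences were fitted with limma 3.58.1 (R 4.3.3) on log2(RPM + 1) over all 20811 genes, HuCCT1/CD90+ minus HuCCT1/CD90-, with Benjamini-Hochberg adjustment. This called 3138 genes. The unfiltered table keeps 3805 genes at 0 in every library. On the recovered reads, edgeR 4.0.16 (quasi-likelihood) called 4200 of 12070 genes that passed its filter and DESeq2 1.42.0 called 4236. The fit was tested on simulated data. Intervals of pooled read ratios are exact binomial. The floor is 3 reads per library. Since no source says that replicates are separate cultures, p-values measure the spread between these libraries, which may be technical.

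Same-numbered libraries deviated together (r = 0.209, 0.32 and 0.178, other pairs -0.294 to 0.071), so the numbers were read as pairs in a replicate block. This rests on the data and not on the labels. Deviations were taken from the mean of each line, so the r values are not independent of each other. Whether the libraries are pairs was not tested. Named genes were the 10 members, THY1, up to 3 called rises and 3 called falls of each list with a mean of at least 1 RPM, and the 5 genes most like COBL. Some genes of these lists are not reported here. Positions came from GENCODE 29 by symbol (18609 genes placed, 2202 not). Amplicon positions were not used here. The members, lists and tests were chosen with earlier results of these data known. Alternatives changed the offset, filter, scaling, tool, fold limit, local median and libraries.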

Additional observations from a re-analysis of the deposited data

How the results depend on the processing

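COBL and EPS8L1 rose and passed in every alternative that tested them, with log2 fold changes of 3.91 to 8.62 and 1.99 to 4.59 over the limma alternatives, and EPS8L2 ranged from 1.86 to 2.54. Of the 10 genes, or of those that a filter left, 2 to 4 were called higher and 0 lower throughout. In the fits with a fold of at least 1.5, 4.61% to 17.5% of the tested genes were called higher and 4.36% to 17.3% lower. A filter at 1 RPM and that of edgeR each left 7 of the 10, and a filter at 10 RPM left 4. VIL1 was called with an offset of 0.1 RPM (2.15, adjusted p = 0.033, limma) and by edgeR without a filter (3.42, adjusted p = 0.023). With a library left out, the number called higher was 2 to 3, the median of the 10 genes 0.079 to 0.14, EPS8L3 had log2 fold changes from -0.67 to 0.19, and 22 to 27 listed genes were higher and 6 to 10 lower. With the median of the neighbours taken off, EPS8, EPS8L3 and EZR turned to -0.19, 0.028 and 0.24, none being called. The median of the 10 genes was 0.26 with an offset of 0.1 RPM, 1.23 with a mean of at least 10 RPM (4 genes left), 0.53 by edgeR without a filter and 1.03 by DESeq2 (9 genes with a value). The listed genes called lower were 7 with an offset of 5 RPM and 7 with a fold of at least 2. With the replicate block 20 were higher and 5 lower, and the block changed no call of the 10 genes. Apart from the filters, which left fewer genes, the cause of these shifts was not tested. Values at or below the floor of 0.284 to 0.349 RPM rest on 3 reads or fewer in a library. Between such values a fold of 1.5 on log2(RPM + 1) cannot be reached.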
